A study of Mus musculus with 4 samples.

Results

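The 8 genes Epor, Jak2, Stat5a, Stat5b, Pim1, Socs3, Cish and Lyn encode the erythropoietin receptor, its kinase and signal carriers, and targets and brakes of the pathway. They were chosen by name, and a peak of open chromatin was given to one of them when its summit lay in the gene body, or within 100 kb of it with that gene as the nearest protein-coding gene. By this rule 60 of 55290 accessible regions, built from 169 of 160483 peaks, belonged to the 8 genes. Accessibility was read by ATAC-seq, where a transposase enters chromatin that is not packed and the pieces it frees are sequenced, from about 50000 cells of mouse fetal liver per library at embryonic day 14.5. There were 2 libraries of wild-type (WT) liver and 2 of Hemgn knockout (KO) liver, and 1 list of peaks was used for each library. The product of Hemgn is hemogen, found in the nuclei of haematopoietic cells. The comparison asks which regions at the genes of the erythropoietin pathway differ in accessibility between the genotypes. The labels give neither the kind of KO allele nor the mouse strain, and nothing states that the replicates are different embryos or litters, so the spread between libraries may be technical.

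Erythropoietin is the hormone that keeps late erythroid progenitors alive and dividing. Its receptor, Epor, has no kinase of its own and works through the bound kinase Jak2, which phosphorylates the transcription factors Stat5a and Stat5b. These enter the nucleus and switch on target genes, among them the survival kinase Pim1 and the feedback inhibitors Cish and Socs3. Lyn is a Src-family kinase that can act beside Jak2 at the receptor. In the fetal liver at this stage, most cells are erythroid precursors that depend on this pathway.

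The start-site sequences of 3 members are shown because they hold letters read by STAT factors (Cish and Socs3) or by GATA, Sp and Klf factors (Epor), and each lies under a region that was open in every library. Each sequence runs from 250 bases before the start site to 30 bases from the start on, 5′ to 3′ along the gene, from RefSeq on the mouse assembly GRCm38.p6. The Epor sequence is chr9:21963547-21963826, minus strand. Its capitals mark a GATA hexamer and 2 stretches of overlapping CCNCNCCC matches, the letters read by GATA factors and by Sp and Klf factors. The Cish sequence is chr9:107296409-107296688, plus strand, and the Socs3 sequence is chr11:117969337-117969616, minus strand. In both, capitals mark TTCNNNGAA, the palindrome read by STAT factors.
Epor: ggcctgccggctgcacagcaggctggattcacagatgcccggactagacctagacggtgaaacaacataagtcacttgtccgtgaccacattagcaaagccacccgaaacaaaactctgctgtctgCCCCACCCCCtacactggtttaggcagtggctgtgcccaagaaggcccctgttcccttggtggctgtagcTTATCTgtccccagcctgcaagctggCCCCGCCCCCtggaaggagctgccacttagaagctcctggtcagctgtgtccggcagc
Cish: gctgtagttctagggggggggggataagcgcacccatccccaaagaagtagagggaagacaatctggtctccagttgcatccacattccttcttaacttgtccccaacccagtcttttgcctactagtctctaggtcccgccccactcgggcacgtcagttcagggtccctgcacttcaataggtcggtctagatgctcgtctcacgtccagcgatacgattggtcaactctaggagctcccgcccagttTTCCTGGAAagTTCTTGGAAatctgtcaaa
Socs3: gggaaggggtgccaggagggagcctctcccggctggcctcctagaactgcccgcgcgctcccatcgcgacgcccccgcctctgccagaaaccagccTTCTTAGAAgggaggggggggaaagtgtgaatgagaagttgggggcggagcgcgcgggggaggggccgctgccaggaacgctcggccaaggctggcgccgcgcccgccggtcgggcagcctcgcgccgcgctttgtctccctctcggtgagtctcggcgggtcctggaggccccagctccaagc

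The searched motifs were the GATA hexamers AGATAA or TGATAA, and AGATAG or TGATAG, then the STAT palindrome TTCNNNGAA, CCNCNCCC, and the E-box CANNTG, on both strands and with overlaps counted. Windows of 300 bases, from 250 before to 50 after a start, were searched at 10 start sites of 7 members and at all 32851 RefSeq start sites. Epor held a GATA hexamer, whose first base lay 54 bases before the start, and the other 9 member windows held none. Over all windows 29.8% held one. Cish held 2 TTCNNNGAA matches within its first transcribed bases, and Socs3 held 1 that began 154 bases before its start. At least 1 such match was found in 8.30% of all windows and at least 2 in 0.457%. The Epor window had 4 overlapping CCNCNCCC matches in the 2 marked stretches. At least 1 was found in 49.5% of all windows and at least 2 in 30.6%. Such matches were not particular to Epor: starts of Cish, Socs3, Pim1, Jak2, Stat5a and Stat5b held them too. Those in the printed Cish and Socs3 sequences are not in capitals. It also had 5 E-boxes, of which 3 lay after the start, and 72.3% of all windows held at least 1. These matches are letters in a window and do not show that a factor is bound.

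WT replicates 1 and 2 and KO replicates 1 and 2, the order used for every list of 4 values here, had 47858, 34181, 35426 and 43018 peaks on the chromosomes. The most frequent local background, a measure of relative depth recovered from the lists, was 5.67, 2.29, 2.49 and 3.8 fragments. WT replicate 1 and KO replicate 2 were therefore the deeper libraries, 1 in each genotype. Every library had 2 peaks in or within 1 kb of Hemgn, KO included, which does not measure the gene's product and so checks nothing about the labels. Genes listed as markers of cell types were counted, with Tfrc both among the erythroid ones and in the pathway list below. All 8 erythroid genes had a peak within 1 kb of a gene end in all 4 libraries. The counts were 0 of 6 for macrophages, 0 of 6 for granulocytes, 1 of 5 for B cells, 1 of 4 for T cells, 2 of 5 for megakaryocytes, 2 of 6 for hepatocytes and 3 of 6 for endothelial and stellate cells. In whole fetal liver, a region open in fewer cells and one cut less often per cell cannot be told apart.

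Peaks at the 8 genes were as numerous in KO as in WT within the spread of the libraries. There were 51 and 36 member peaks in the WT lists and 36 and 46 in the KO lists, so the lowest library of each genotype had the same number. The KO mean was 41 ± 7.07 and the WT mean 43.5 ± 10.6 peaks (SD over 2 libraries of each; exact two-sided permutation p = 1, where the smallest p that 6 relabelings allow is 0.333). As a share of the list they made up 0.107% and 0.105% in WT and 0.102% and 0.107% in KO, and they covered 35.6 and 26.8 kb in WT and 28.0 and 33.7 kb in KO (exact permutation p = 1 for each). The 3 tests had an adjusted p of 1. In each genotype the deeper library had more member peaks, and the part of depth in these numbers was not tested.

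Of the 60 regions, 29 had a peak in all 4 libraries, 5 in 3, 10 in 2 and 16 in 1. The share found in all 4 was 48.3%, against 49.7% of all regions. The 29 shared regions had a median length of 775 bp and the other 31 a median of 306 bp. Fold enrichment, the authors' ratio of fragments at a summit to the local background, was read as a percentile within each library's list. The median of this percentile was 56.7 for the shared regions and 13.4 for the others, of which the highest reached 46.2. Regions with a peak in a single library were most often those of the deeper libraries, 8 in WT replicate 1 and 6 in KO replicate 2, against 1 each in the other two.

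The genes differed widely in how many regions they held. Pim1 had 16, Jak2 11, Socs3 10, Stat5b 9, Lyn 6, Cish 5, Stat5a 2 and Epor 1, where the median gene had 1, 27.3% of the 21779 genes had none and 1.11% had at least 16. Regions in all 4 libraries numbered 11 at Pim1, 4 each at Jak2 and Socs3, 3 each at Stat5b and Cish, 2 at Stat5a and 1 each at Epor and Lyn. Relative to the genes, 7 of the 60 regions had a summit within 1 kb of a gene end in at least 1 library. Of the others, 17 lay inside the gene and 36 outside. The signalling genes Stat5a and Stat5b had all their regions inside the gene, while Pim1 had 15 of 16 and Socs3 9 of 10 outside it. Within 100 kb of Epor lay 10 other genes, and within 100 kb of Pim1 lay 2. The part of gene spacing in these counts was not tested.

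**Figure D1:**
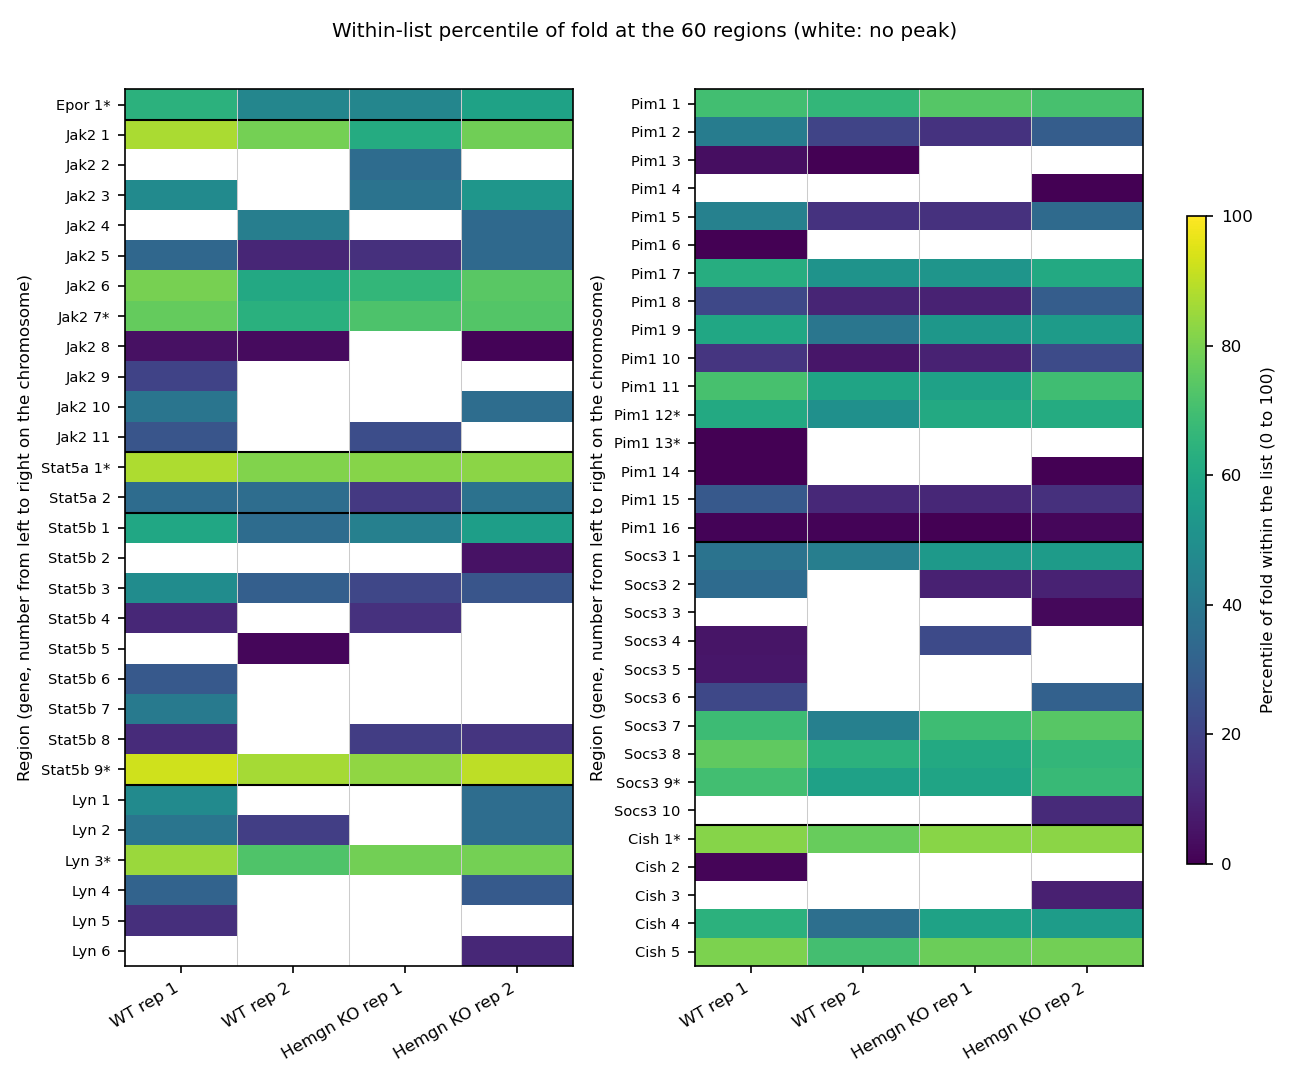
Within-list percentile of fold (colour) for the 60 regions of the 8 genes (rows) in the 4 libraries (columns); blank cells have no peak and an asterisk marks a region within 1 kb of a gene end or a listed start. The 29 regions filled in every library include the start-site region of each gene (for Lyn, the region at its left end). Blanks lie mostly in WT replicate 2 and KO replicate 1.

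The receptor gene Epor had a single region, chr9:21961434-21963933, which spans 2500 bp over its start and the first part of the gene. Its percentile of fold was 64.3 and 45.7 in WT and 46.0 and 57.7 in KO, and at its summit 610 and 210 fragments were recovered in WT and 212 and 330 in KO. In both measures the genotypes overlapped, and the deeper library was the higher in each. Divided by the median of the 27473 regions shared by all libraries, the summit stood at 4.52 and 4.12 times that median in WT and at 3.93 and 3.93 times in KO, with both KO libraries below both WT libraries, an order that quantile normalization did not keep. On quantile-normalized log2(fragments + 1), the KO to WT ratio was 0.90 (95% confidence interval of limma 0.76 to 1.06, adjusted p = 0.522), so a difference was not detectable. Without KO replicate 1 the log2 ratio moved from −0.16 to −0.04, and without WT replicate 1 to −0.06.

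Summits at Epor lay 3 bases upstream, 5 bases downstream and 1 base upstream of the start in both WT libraries and in KO replicate 2. In KO replicate 1 the summit was 1033 bases downstream, inside the gene, within a peak of 2392 bp that also covered the start. KO replicate 2, of the same genotype, had the position of the WT libraries. Around Epor, 20 regions lay within 100 kb, 12 of them in all 4 libraries, and all but its own were nearer to other genes. The nearest, by Swsap1 at 3.07 kb beyond the 3′ end of Epor, had 1565 and 610 fragments in WT and 768 and 982 in KO, more than the Epor summit in each library. Of the 59 other pathway and family genes compared, Src, Stat6 and Akt1 had the boundary region nearest to that of Epor over the 4 percentiles, at Euclidean distances of 9.21, 15.9 and 16.6 percentile points.

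The kinase gene Jak2 had its start-site region at chr19:29251030-29252624, with 1231 and 368 fragments in WT and 648 and 689 in KO. Divided by the shared-region median, the WT libraries gave 9.12 and 7.22 and the KO libraries 12 and 8.20, so KO replicate 2 lay between the WT libraries. The KO to WT ratio was 1.16 (95% interval 0.986 to 1.36, limma adjusted p = 0.354). The summit was 373 bases upstream of the start in both WT libraries and 372 upstream in KO replicate 2, but 34 bases downstream in KO replicate 1. Lyn, the second kinase, had 1 region in all 4 libraries, chr4:3677819-3679139 at the left end of the gene, with 308 and 112 fragments in WT and 177 and 193 in KO. No start or strand was listed for Lyn, and this region stands for its start here. The WT libraries gave 2.28 and 2.2 times the median and the KO libraries 3.28 and 2.3 times, with KO higher without overlap. By rank of fold among the shared regions the genotypes overlapped, at 74.0 and 65.7 in WT and 72.8 and 67.5 in KO. The ratio of normalized fragments was 1.24 (95% interval 0.995 to 1.54, limma adjusted p = 0.322). The other 5 Lyn regions were missing from at least 1 library, and 4 of these had no peak in either of the shallower libraries.

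Stat5a and Stat5b are neighbouring genes for near-identical transcription factors. Both had their strongest region at a start site, and these had the highest mean percentiles of fold among the start sites of the 8 genes. At Stat5b the region chr11:100849829-100851240 had percentiles of 92.8 and 86.4 in WT and 83.5 and 89.9 in KO, with 802, 280, 356 and 469 fragments. At Stat5a the region chr11:100860127-100861606 had percentiles of 87.6 and 81.0 in WT and 81.8 and 82.8 in KO, with 333, 127, 162 and 208 fragments. Genotypes overlapped in percentile at both. The KO to WT ratios of normalized fragments were 1.02 (95% interval 0.90 to 1.17) for Stat5b and 1.12 (0.92 to 1.35) for Stat5a, with limma adjusted p of 0.885 and 0.570. RefSeq lists a second start for each gene, and no peak of any library covered either of them.

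The starts of the target genes Cish and Socs3 did not pass the test of normalized fragments. Cish, an inhibitor that binds the receptor, had 669 and 259 fragments in WT and 318 and 425 in KO at chr9:107296198-107297491, a ratio of 1.06 (95% interval 0.93 to 1.2, limma adjusted p = 0.682). By place KO was higher there without overlap, at 68.4 and 71.3 in WT and 77.0 and 72.7 in KO. In 3 libraries its summit lay 133, 134 and 138 bases downstream of the start, and in WT replicate 1 it lay 20 bases upstream, nearer to the pair of STAT palindromes. Socs3, which blocks Jak2, had 754 and 294 fragments in WT and 339 and 460 in KO at chr11:117968087-117970218, a ratio of 0.997 (95% interval 0.88 to 1.13, limma adjusted p = 0.984). Its summit moved between 36 bases upstream and 201 downstream without following genotype.

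Pim1 had the highest summit of the 8 starts in all 4 libraries, 1490 and 630 fragments in WT and 803 and 904 in KO, in chr17:29489741-29492158. In multiples of the shared-region median this is 11 and 12.4 for WT and 14.9 and 10.8 for KO, so the genotypes overlapped, at a ratio of 1.04 (95% interval 0.96 to 1.13, limma adjusted p = 0.650). Its percentile of fold was no more than moderate, 60.9 and 50 in WT and 60.9 and 61.6 in KO. The local background that fold divides by was 221 and 98.9 fragments in WT and 109 and 134 in KO at this 2418 bp region, far above the most frequent background of each library. Since fold divides by this background, a region with a high local background, such as this one, has a low fold for its fragments. The part of region width in this was not tested. By place, the percentile of fold among the shared regions alone, KO was higher at this start without overlap (34.8 and 39.1 in WT, 49.7 and 41.3 in KO). No peak of any library covered the second listed start of Pim1.

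**Figure D2:**
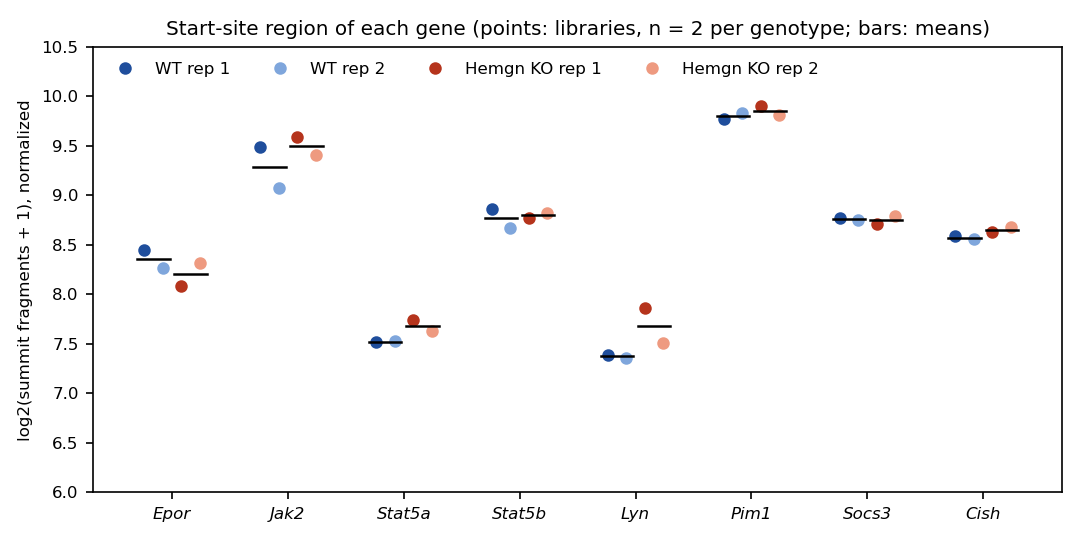
Start-site regions of the 8 genes by library, with WT and KO replicates as points. Stat5b and Stat5a have the highest mean percentile of fold and Pim1 the most fragments at the summit, and none of the 8 passed the adjusted test of KO against WT.

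Away from the starts, Pim1 had the densest set of regions, and by normalized fragments they were the ones with the most lower estimates in KO. A group of 7 regions, 4 of them in all 4 libraries, lay 43.3 to 53.5 kb upstream within 10.9 kb, and 8 of the 16 Pim1 regions overlapped the lncRNA gene Gm36199. The outermost, chr17:29436839-29437582, had 1074 and 408 fragments in WT and 437 and 562 in KO. The region 52.2 kb upstream, chr17:29438316-29438847, had 592 and 193 in WT and 159 and 277 in KO. Divided by the shared-region median, the outermost stood at 7.96 and 8 in WT and at 8.09 and 6.69 in KO, so the genotypes overlapped. The region at 52.2 kb stood at 4.39 and 3.78 in WT and at 2.94 and 3.30 in KO, with both KO libraries below both WT libraries.

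At 43.3 kb upstream, chr17:29447018-29447689 had 628 and 183 fragments in WT and 147 and 296 in KO, or 4.65 and 3.59 times the median in WT and 2.72 and 3.52 times in KO. Downstream of the gene by 4.79 kb, chr17:29499376-29501274 had 386 and 154 fragments in WT and 123 and 188 in KO, or 2.86 and 3.02 times in WT and 2.28 and 2.24 times in KO. All 4 of these Pim1 regions were lower in KO at an unadjusted limma p under 0.05, with log2 ratios of −0.19, −0.39, −0.39 and −0.34. Of all shared regions, 16% passed that threshold, in either direction. None of the 4 passed the adjusted test (limma adjusted p = 0.203, 0.190, 0.286 and 0.214). Of the 11 shared Pim1 regions, 9 had an estimate below 0 (7 with median centring in place of quantile normalization), at a median of −0.29 on the log2 scale, against 0.00 over all shared regions. That median was −0.12 without KO replicate 1 and −0.15 without WT replicate 1. By place the same regions went both ways, with 6 of 11 higher and 5 lower in KO, 2 of each without overlap. Over all shared regions, 19.2% were higher and 20.4% lower in KO without overlap. The outermost Pim1 region was among the 6 higher (48.1 and 58.2 in WT, 65.9 and 54.6 in KO, a mean difference of 7.09). Neighbouring regions share their cells and libraries, so these are not 9 independent observations. Without KO replicate 1 the log2 ratios of the 4 named regions became −0.17, −0.21, −0.12 and −0.29.

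The region between them, chr17:29439899-29440332, was the single WT-only region of the 8 genes (a peak in each WT list, and none in the KO lists). It had 378 and 108 fragments in WT but stood at percentiles of 3.87 and 0.348 by fold, near the bottom of both lists. WT-only regions were 1 of 60 at the 8 genes (1.67%) and 2.2% of all regions. KO-only regions were 0 of 60, against 1.41% of all regions. A missing peak means that the authors' threshold was not met and not that no fragments were there.

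**Figure D3:**
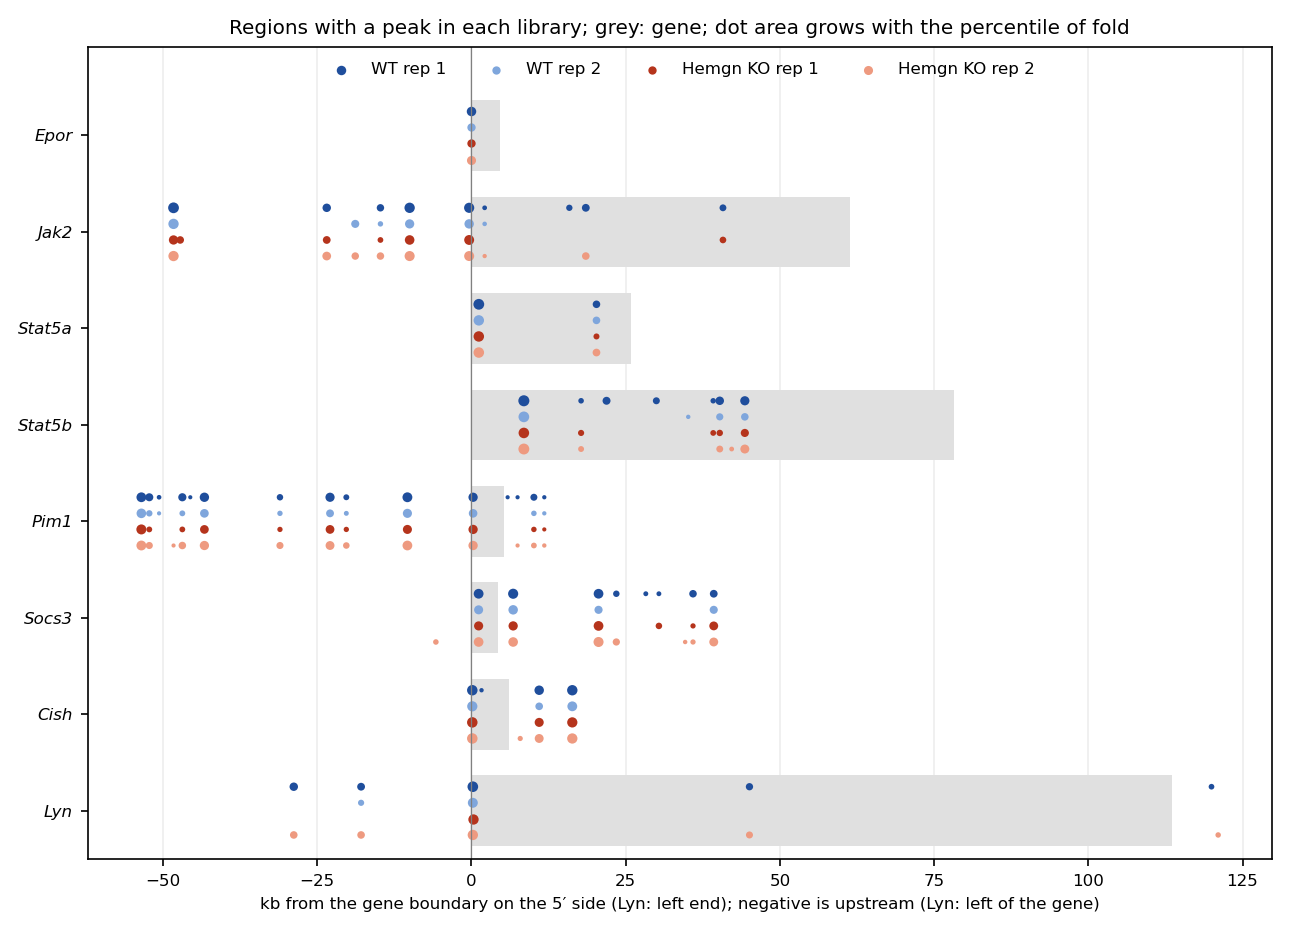
Position of each region of the 8 genes relative to the gene's 5′ end in kb (Lyn: its left end), with a row of dots for each library with a peak. Dot area grows with the within-list percentile of fold. Pim1 has a group of regions 43.3 to 53.5 kb upstream, and Epor has its 1 region at the start.

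Among the other genes, the distal regions with the greatest shift in rank were at Jak2 and Socs3. Place ranks a region's fold among the same 27473 shared regions in every library. At Jak2, chr19:29203010-29203654, 48.3 kb upstream, had places of 78.1 and 73.8 in WT and 50.4 and 66.2 in KO. It had 140 and 53 fragments in WT and 32 and 75 in KO, a KO to WT ratio of 0.70 (95% interval 0.49 to 0.99, unadjusted p = 0.0461, limma adjusted p = 0.304). Both KO libraries were below both WT libraries in place, but without KO replicate 1 the log2 ratio moved from −0.51 to −0.21.

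Socs3 had shifts in both directions downstream of the gene. At 16.3 kb, chr11:117949434-117950080 had places of 46.1 and 31.9 in WT and 60.1 and 59.5 in KO, with 72, 25, 44 and 54 fragments. Further out at 35 kb, chr11:117930681-117931273 had places of 11.6 and 31.2 in WT and 41.6 and 32.5 in KO, with 43, 25, 35 and 40 fragments. By place KO was higher in both without overlap. The log2 ratios of normalized fragments were 0.44 and 0.40 and did not pass the test (limma adjusted p = 0.373 and 0.468), and at 35 kb these fragments overlapped between genotypes. Without WT replicate 1 the region at 35 kb had a log2 ratio of 0.16 and a mean difference in place of 5.85 in place of 15.7. Without WT replicate 2 the difference in place at 16.3 kb was 12.4 in place of 20.8. At 2.5 kb, chr11:117963223-117964051 went the other way, with places of 57.5 and 55.7 in WT and 49.6 and 47.7 in KO and a log2 ratio of −0.12. Inside Stat5b, chr11:100818478-100819252 had places of 19.7 and 19.3 in WT and 10.9 and 8.93 in KO, with 69, 25, 23 and 38 fragments.

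Other shared regions away from the starts included some at Cish, Stat5b and Jak2. Cish had a pair downstream, at 4.85 and 10.2 kb. The nearer, chr9:107307335-107308149, had 111 and 37 fragments in WT and 46 and 64 in KO. The farther, chr9:107312672-107313360, had 117 and 40 in WT and 54 and 74 in KO, with KO to WT log2 ratios of 0.05 and 0.18 for the pair (limma adjusted p of at least 0.682 at all 3 shared Cish regions). Inside Stat5b, chr11:100814416-100814922 had 78 and 22 fragments in WT and 27 and 51 in KO. Jak2 had a region 10 kb upstream, chr19:29241413-29242476, with 148 and 44 fragments in WT and 48 and 90 in KO, and a weaker one at 14.8 kb with 52, 20, 20 and 45 fragments. In raw fragments the deeper library of each genotype was higher at these regions. By place KO was higher without overlap at the farther Cish region (66.0 and 63.0 in WT, 71.2 and 66.5 in KO), and the genotypes overlapped at the nearer one and at the Stat5b region and both Jak2 regions. Inside Jak2, 4 regions had a peak in 1 to 3 libraries and none in all 4. The strongest by fragments, 2.14 kb from the start, had 308 and 127 in WT and 170 in KO replicate 2 but percentiles of 4.43, 2.95 and 1.07 by fold.

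By place, 5 of the 29 shared member regions (17.2%) were lower in both KO libraries than in both WT libraries, where 20.4% of all shared regions were. The reverse held for 6 (20.7%), where 19.2% of all shared regions did. Both shares were near the background, so they are not a result about these genes. The median difference in place, KO minus WT, was 0.683 percentile points for the members and −0.00910 for all shared regions. The members ranged from −17.6 to 20.8, and the central 95% of all shared regions ran from −17.4 to 17.8.

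The limma fit over all 27473 shared regions called 233 regions at an adjusted p under 0.05 (0.848%), 56 lower and 177 higher in KO. With median centring in place of quantile normalization it called 773, 439 lower and 334 higher, so the direction of the calls over the genome depends on the scaling. None of the 29 member regions was called in either fit. At an unadjusted p under 0.05 the first fit had 5 of 29 members, all lower in KO, the 4 Pim1 regions and the Jak2 region described above, where 16% of all shared regions passed. The second fit had 6 of 29, where 13.6% of all shared regions passed. The Jak2 region and the Pim1 regions 52.2 and 43.3 kb upstream and 4.79 kb downstream passed again, lower in KO. In the second fit the outermost Pim1 region no longer passed (log2 ratio −0.12, 95% interval −0.54 to 0.31). The Pim1 region 46.9 kb upstream passed as lower in KO, and the Socs3 region 16.3 kb downstream as higher (0.49, interval 0.0056 to 0.97). Without any 1 library, in order, the fit called 0 of all regions (1830, 1826, 1768 and 4614 at an unadjusted p under 0.05), so the 233 calls rested on having all 4 libraries. Log2 ratios of the members ran from −0.51 to 0.44 with a median of 0.02, with 14 below 0 and 15 above (11 and 18 with median centring).

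**Figure D4:**
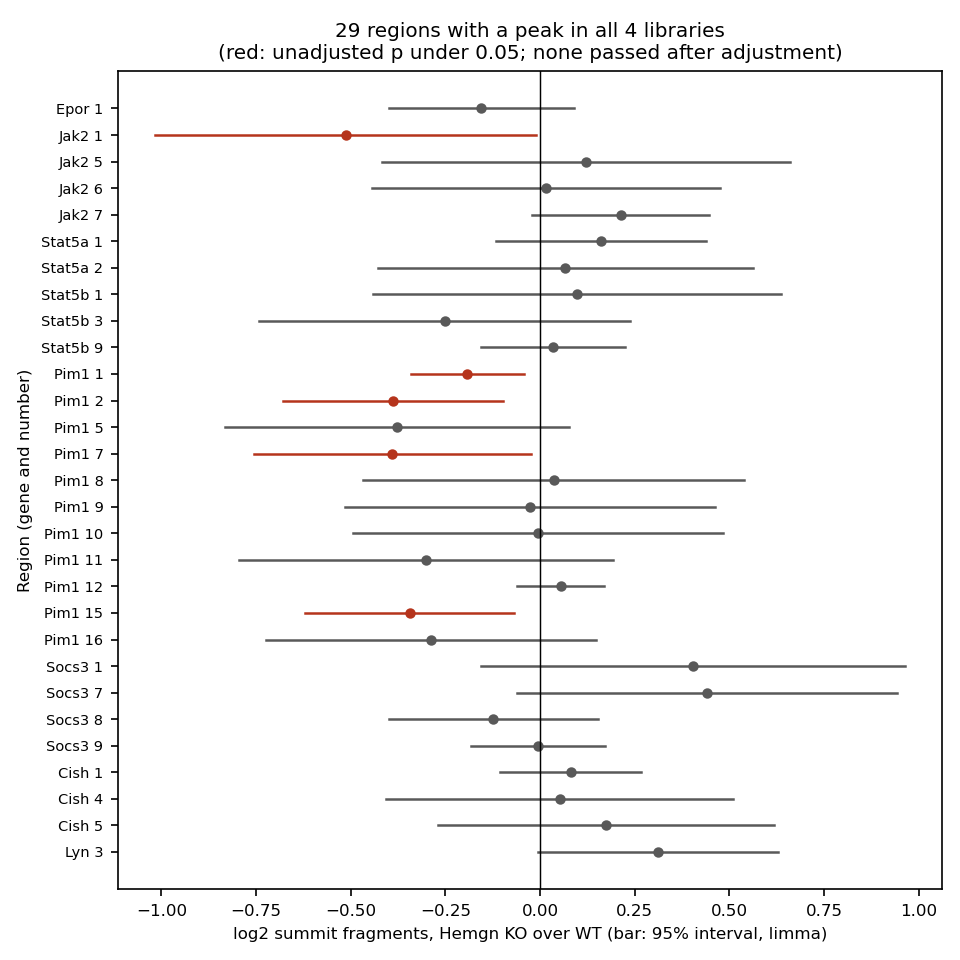
KO to WT log2 ratio of normalized summit fragments for the 29 shared regions, with limma's 95% confidence interval for each region, not adjusted for the number of regions. Intervals of 4 Pim1 regions and 1 Jak2 region lie below 0, and none of the 29 passed the adjusted test.

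Other genes of the pathway were counted in 2 lists. Of 42 genes around the receptor (adaptors, phosphatases, kinases and targets), 36 had a peak within 1 kb of a gene end in all 4 libraries, 2 in some and 4 in none. Their 305 regions included 146 in all 4 libraries, of which 27 (18.5%) were lower and 24 (16.4%) higher in KO by place. In 30 relatives of the members (JAK, STAT, PIM, SOCS and Src families and other cytokine receptors), 22 had such a peak in all 4 libraries, 5 in some and 3 in none. Of their 59 shared regions, 14 (23.7%) were lower and 18 (30.5%) higher in KO. Over all shared regions the shares were 20.4% lower and 19.2% higher.

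WT-only regions numbered 6 of 305 in the pathway list (1.97%) and 5 of 120 among the relatives (4.17%), where 2.2% of all regions were WT-only. KO-only regions numbered 6 (1.97%) and 2 (1.67%), where 1.41% of all regions were KO-only. These shares were not tested. In the pathway list the WT-only regions lay by the insulin receptor substrate Irs2 (2 regions), the antagonist Spry1, the phosphatase Ptpn2, the STAT inhibitor Pias1 and the transferrin receptor Tfrc. KO-only regions lay by the phosphatases Ptpn11 and Inpp5d, the exchange factor Sos1, the transcription factor Foxo3, the cyclin Ccnd3 and Irs2. Among the relatives, WT-only regions included those by Jak1, Socs4, Src and Fgr, and KO-only regions lay by Socs7 and Lck. Such regions were weak: that at Jak1, chr4:101235349-101236140, had 33 and 19 fragments in the WT libraries, and that at Ptpn11, chr5:121122325-121122764, had 13 and 16 in the KO libraries. The lowest summit in any list had 9 fragments.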

How the data were processed

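Per the labels, cells of E14.5 fetal liver were treated by an Omni-ATAC protocol, and each of the 4 libraries has its own deposited peak list, none pooled. The submitters' processing notes name MACS2 2.2.7.1, Picard 2.21.4, SAMtools 1.9 and Bowtie2 2.3.5. For the build and all settings, the sources used here say nothing. The deposited fold is the authors' ratio of fragments at a summit to local background. The deposited −log10 p, −log10 q and score are the authors' values for single peaks. Where replicate numbers in peak names differed from the labels, the labels were used.

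Peaks on chromosomes 1 to 19, X and Y sharing at least 1 bp were merged. Summits were assigned with a RefSeq gene table of GRCm38.p6. Its gene ends had 27.8% to 35.3% of a list's summits within 1 kb, against at most 7.31% after shifts of 5, 20 and 50 kb. Fragments at each summit were solved from fold and −log10 p as whole numbers, within 0.001 on the −log10 p, for 100% of peaks, and a peak needed at least 9 to 15. They come from a peak caller's pileup and are not read counts, so no count model was used. Log2(fragments + 1) of shared regions were compared with limma 3.58.1 (R 4.3.3; eBayes with trend, Benjamini-Hochberg adjustment), a fit added after the data were seen. Intervals of that fit assume that these 2 libraries per genotype stand for their groups. Library values were compared by exact permutation tests (Python 3.11.15, scipy 1.17.1). Scripts were tested on simulated data. Genes, lists and tests were chosen with earlier results of these data known. Named were all 8 genes with their regions at gene ends, strongest and exclusive regions, up to 3 rank calls each way, the 3 genes most like Epor, and list genes with an exclusive region. Other regions and the 5 with an unadjusted p under 0.05 were named after their values were seen. One list gene with an exclusive region is not reported here.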

Additional observations from a re-analysis of the deposited data

How the results depend on the processing

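The 4 libraries and their depth limit these results: a 2 against 2 exact test cannot pass 0.05, and weak regions were found mainly in the 2 deeper lists. The number of member peaks, KO minus WT, was −2.5 as deposited, 0.5 in lists of equal length by fold or by −log10 q, 3 in the upper 50% of each list, 1 from a fold of 6 upward, and −10 to 5 on leaving out 1 library. With the replicate block it was −2.5 (−15 in replicate 1, 10 in replicate 2; p = 1 in an exact sign-flip test), and the shared numbers are not stated to pair the libraries. Regions in every library fell from 29 to 14 in the upper 50%, 14 from a fold of 6 upward, 15 within 10 kb and 11 within 1 kb of the gene. WT-only regions were 3 with summit windows of 100 bp, 0 in lists of equal length by fold, in the upper 50%, from a fold of 6 upward, within 10 kb and within 1 kb, and 1 to 9 on leaving out 1 library (9 without WT replicate 2). The 9 were 15.3% of member regions, against 15.5% of all regions, and the 3 were 4.41% against 2.61%. KO-only regions were 1 with summit windows, 1 in the upper 50% and 0 to 6 on leaving out 1 library (6 without KO replicate 1). In that order these were 1.47%, 4.76% and, for the 6, 10.2% of member regions. The shares of all regions were 1.76%, 0.984% and 8.83%. KO lower regions were 2 in the upper 50%, 2 from a fold of 6 upward, 3 within 10 kb, 1 within 1 kb, 2 by the within-list percentile of fold, 0 by that of −log10 q, 8 with the replicate block and 7 to 12 on leaving out 1 library. KO higher regions were 3, 3, 2 and 2 in the first 4 of these settings, 2 by −log10 q, 10 with the replicate block and 10 to 13 on leaving out 1 library. As shares of shared member regions, the KO lower counts were 27.6% with the replicate block and 22.6% to 41.4% on leaving out 1 library. Over all shared regions these shares were 27.1% and 34.7% to 36.2%. KO higher counts were 34.5% and 31.25% to 44.8%, against 26.1% and 31.5% to 37.1%. By −log10 q the shares were 0% lower and 6.90% higher, against 8.46% and 7.09%. Within 1 kb they were 9.09% and 18.2%, against 20.4% and 19.2%. These shares were not tested. The limma calls over all shared regions were 773 with median centring, 262 with the replicate block and 0 on leaving out each library in turn, and among the members 0 in every fit. Settings with a threshold or a shorter distance hold fewer regions, and with 3 libraries a call asks for agreement of fewer libraries. For the other shifts the cause was not tested. The 5 member log2 ratios with an unadjusted p under 0.05 and the 6 largest place differences kept their direction in every setting tried. Both sets were picked for their differences in these same libraries, the place differences also for genotypes that did not overlap. The replicate block cannot change a log2 ratio in this design. The kept direction was therefore largely fixed in advance and gives no support to these differences.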
